A study of Homo sapiens with 6 samples.

Results

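Mitochondrial DNA is copied, transcribed and read by proteins that are almost all encoded in the nucleus. The set described here holds 48 such genes, chosen by name for their known function. Of these, 46 had at least 1 probe set that the platform's table assigns to them alone, out of 19775 genes measured in all. The 46 fall into 19 genes of mitochondrial DNA (mtDNA) replication and transcription, 15 of 16 mitochondrial aminoacyl-tRNA synthetases and 12 of 13 translation factors. TARS2 has a probe set shared with a second gene and GFM2 has none listed under its name, so neither was analysed here.

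Messenger RNA was measured on 6 Affymetrix arrays, 3 of the cybrid 10A/143B and 3 of the cybrid 468/143B. A cybrid is a cell line made by fusing an enucleated donor of mitochondria with a cell that has lost its own mtDNA. Both cybrids have the nuclear background of 143B p0, the mtDNA-free form of the thymidine-kinase-deficient osteosarcoma line 143B. The mitochondria of 10A/143B came from MCF10A, a non-tumorigenic line of breast epithelium, and those of 468/143B from the breast cancer line MDA-MB-468. The donors had been enucleated with actinomycin-D, fusion was by polyethylene glycol, and fused cells of both kinds were selected with bromodeoxyuridine in medium lacking uridine. The labels name the donor as the cell line of each array and do not say whether a cybrid is 1 clone or a pool, and the 3 RNA extractions are not said to be from different cultures. The p-values below thus reflect array-to-array spread alone, and this may be technical.

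In human mitochondria, POLRMT with TFAM and TFB2M transcribes both strands of mtDNA into long precursors. A separate replisome of POLG, POLG2, the helicase TWNK and SSBP1 copies the DNA. The transcripts are stabilised by LRPPRC with SLIRP and translated on mitochondrial ribosomes, which use their own initiation, elongation and release factors and a set of synthetases that charge the mitochondrial tRNAs. Many genes of this machinery have promoters with sites for NRF1 or for the ETS factor GABP, both regulators of respiratory genes.

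The promoters of 6 members are shown because genes with the same letters upstream differed in opposite directions between the cybrids. Each is the 250 bases before the RefSeq start site (GRCh38.p14), written 5′ to 3′ on the gene's strand. Capitals mark exact matches to the NRF1 core (GCGC, any 2 bases, then GCGC, which reads alike on both strands) or to the ETS core CCGGAAGT on either strand. TFAM (chr10:58385160-58385409, plus strand), IARS2 (chr1:220093882-220094131, plus strand) and GFM1 (chr3:158644277-158644526, plus strand) were higher in 10A/143B, whereas POLRMT (chr19:633538-633787, minus strand), MARS2 (chr2:197705119-197705368, plus strand) and TUFM (chr16:28846349-28846598, minus strand) were lower.
TFAM: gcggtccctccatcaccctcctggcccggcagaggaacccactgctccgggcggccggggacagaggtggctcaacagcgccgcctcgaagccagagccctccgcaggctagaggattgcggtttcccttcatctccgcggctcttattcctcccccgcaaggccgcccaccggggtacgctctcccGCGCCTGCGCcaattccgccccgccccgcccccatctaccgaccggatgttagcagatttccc
IARS2: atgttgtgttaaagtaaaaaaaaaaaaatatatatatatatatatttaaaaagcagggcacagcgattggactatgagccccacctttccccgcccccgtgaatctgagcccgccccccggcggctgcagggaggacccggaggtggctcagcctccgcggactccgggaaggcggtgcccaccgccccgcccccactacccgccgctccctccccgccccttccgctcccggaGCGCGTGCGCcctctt
GFM1: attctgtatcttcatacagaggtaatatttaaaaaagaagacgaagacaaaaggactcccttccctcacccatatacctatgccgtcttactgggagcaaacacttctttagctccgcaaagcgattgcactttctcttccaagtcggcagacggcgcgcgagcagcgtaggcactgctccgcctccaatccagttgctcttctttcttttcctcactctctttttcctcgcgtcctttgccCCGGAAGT
POLRMT: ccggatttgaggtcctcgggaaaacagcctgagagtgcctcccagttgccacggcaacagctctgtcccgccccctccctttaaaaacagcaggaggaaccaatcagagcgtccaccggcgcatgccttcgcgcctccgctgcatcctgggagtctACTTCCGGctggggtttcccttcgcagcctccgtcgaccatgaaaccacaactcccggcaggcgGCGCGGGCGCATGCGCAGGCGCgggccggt
MARS2: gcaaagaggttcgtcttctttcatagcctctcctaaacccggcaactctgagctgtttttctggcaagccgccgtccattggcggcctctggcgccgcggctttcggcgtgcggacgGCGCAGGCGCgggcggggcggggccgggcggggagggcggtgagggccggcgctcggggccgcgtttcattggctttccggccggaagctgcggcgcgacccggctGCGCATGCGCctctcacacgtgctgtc
TUFM: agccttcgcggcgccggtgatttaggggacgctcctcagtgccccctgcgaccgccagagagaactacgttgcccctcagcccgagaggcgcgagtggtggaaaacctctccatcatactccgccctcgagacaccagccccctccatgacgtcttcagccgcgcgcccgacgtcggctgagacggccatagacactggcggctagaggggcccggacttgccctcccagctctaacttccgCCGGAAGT
The NRF1 letters began 63 bases before the start in TFAM and 16 bases before it in IARS2. In POLRMT 3 overlapping matches began 30, 24 and 18 bases before the start, and in MARS2 separate matches began 133 and 27 bases before it. The ETS letters began 8 bases before the start in GFM1 and TUFM and 94 bases before it, on the other strand, in POLRMT. Among all 35093 such windows, 7.16% held the NRF1 letters and 3.43% the ETS letters. Of the 39 measured members with a window in the table, 8 held the NRF1 letters (TFAM, TFB1M, POLRMT, POLG2, MTERF4, IARS2, MARS2 and OXA1L) and 11 the ETS letters (POLRMT, SSBP1, MTERF1, MTERF4, EARS2, HARS2, PARS2, TUFM, GFM1, MTRF1L and TRMU). A match is a description of the letters, not a site at which binding was measured.

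The cybrids differed in this machinery in both directions. Of the 46 members, 18 were higher and 9 lower in 10A/143B at a Benjamini-Hochberg adjusted p under 0.05 (limma on log2(intensity + 16), fitted on all genes). Among all 19775 genes, 35.6% were called this way, 19.9% higher and 15.7% lower. The members are mostly bright genes, with 43 of 46 at or above the median level, and 60.8% of all genes at that level were called, against 58.7% of the members. The share of members called was thus close to that of other genes of such levels. After median centring the calls were 11 higher and 11 lower, and after quantile normalization 11 higher and 12 lower, so the balance of directions depended on how the arrays were scaled.

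Replicates 2 and 3 of each cybrid were near duplicates. Their difference had an SD of 0.07 on the log2 scale in 10A/143B and 0.09 in 468/143B over 5711 genes with a mean log2 level above 8, against 0.23 to 0.27 for pairs that include replicate 1. A second fit therefore averaged replicates 2 and 3 to 1 sample, so that 2 samples stood against 2. In that fit 9 members were higher and 6 lower, where 22.7% of all genes were called (13.8% higher, 8.9% lower). Of genes at or above the median level that fit called 42.1%, and of the members 32.6%. These 15 members, called the same way in both fits, were RRM2B, FASTKD2, TFAM, LRPPRC, SSBP1, AARS2, IARS2, MTIF2 and GFM1 on the higher side and POLRMT, MARS2, FARS2, EARS2, SARS2 and TUFM on the lower side. The remaining 12 called members passed on 6 arrays only. The median difference of the members was 0.18 (log2, 10A/143B minus 468/143B), with quartiles of -0.20 and 0.43, against -0.02 for all genes.

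RNA integrity was read from the ACTB and GAPDH control probe sets. For ACTB, the 3′ over 5′ ratios were 1.92, 1.74 and 1.59 on the 10A/143B arrays, against 1.18, 1.65 and 1.67 on those of 468/143B. The same ratio of GAPDH was 1.01, 0.973 and 0.933 on the 10A/143B arrays, against 0.966, 1.06 and 1.07 on those of 468/143B. For ACTB the highest values were on 10A/143B arrays and for GAPDH on 468/143B arrays. Median intensities ranged up to 24.4 for 10A/143B arrays (lowest 21.7) and up to 21.4 for 468/143B arrays (lowest 20.4). The part of these, and of the markers that follow, in the results was not tested. VIM, a mesenchymal filament, was bright in both groups, with a mean intensity of 8687 in 10A/143B and 8418 in 468/143B, and it was not called. Of the 5 mesenchyme and osteosarcoma markers, SPARC, a bone matrix protein, was lower in 10A/143B in both fits, at 1483 in 10A/143B and 2354 in 468/143B (-0.66 ± 0.06, limma adjusted p = 4.96e-05, averaged 0.0029). RUNX2, the osteoblast factor, was lower on 6 arrays only, at 513.5 in 10A/143B and 604.9 in 468/143B (limma adjusted p = 0.0271, averaged 0.215). The collagen genes were not called, COL1A1 standing at 88.6 in 10A/143B and 52.5 in 468/143B and COL1A2 at 8.49 in 10A/143B and 8.76 in 468/143B. The 4 other probe sets of COL1A1 were negative, from -1.53 to -0.22, and 1 was called lower, so COL1A1 has no settled direction. Of 7 epithelial markers of the mitochondrial donors, 3 were lower in 10A/143B (KRT8, KRT18 and KRT19) and 0 higher on 6 arrays. KRT18 was bright, at a mean of 4908 in 10A/143B and 6198 in 468/143B, KRT8 stood at 206 in 10A/143B and 439 in 468/143B, and KRT19 was dim. EPCAM, at 55.3 in 10A/143B and 36.8 in 468/143B, was not called (limma adjusted p = 0.0803). KRT5, KRT14 and CDH1 were not called and lay below an intensity of 22 on every array. Of 6 blood and endothelial markers, 1 was called (PECAM1, higher in 10A/143B), and PTPRC, CD14, CD3E and CDH5 lay below 23 on every array. Arrays of whole cultures cannot tell fewer cells of a type from less RNA per cell.

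**Figure D1:**
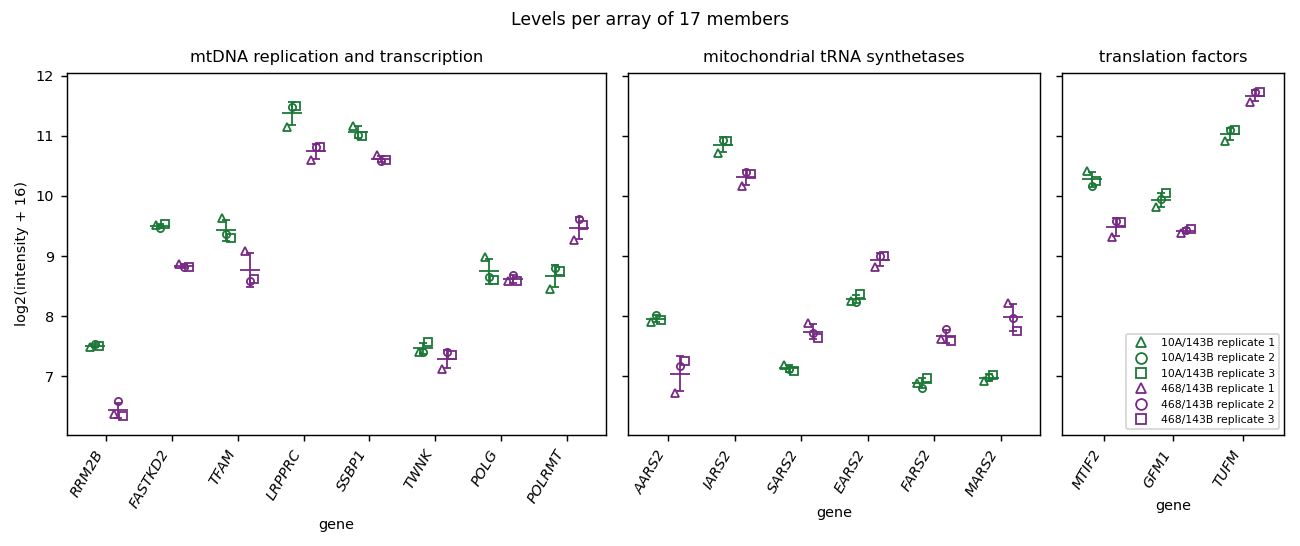
Log2(intensity + 16) of the 15 members called in both fits and of TWNK and POLG, with 1 marker per array (10A/143B in green left of 468/143B in purple, shapes for replicates) and dashes with error bars giving the mean ± SD (n = 3). Only POLG has overlapping groups among the members shown. RRM2B lies at 7.51 ± 0.02 in 10A/143B and 6.43 ± 0.13 in 468/143B.

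Among the factors that start mitochondrial transcription, TFAM and POLRMT moved apart. TFAM, which coats mtDNA and bends it at promoters, had intensities of 776, 644 and 613 in replicates 1, 2 and 3 of 10A/143B, against 530, 370 and 377 in those of 468/143B. Each 10A/143B array was above every 468/143B array, and replicate 1 was the highest in both groups. The difference was 0.66 ± 0.15 (log2, SE, n = 3 arrays each), or 1.58-fold, with a limma adjusted p of 0.00693 on 6 arrays and 0.0415 in the averaged fit. The TFAM probe set used has a suffix (_x_at) that marks probes that can match other sequences. Its other probe sets gave 0.69, which was called, and 0.52 and 0.32, which were not. Without suffixed probe sets TFAM stayed called (0.69, limma adjusted p = 0.00621). POLRMT, the RNA polymerase itself, had intensities of 335, 431 and 413 in 10A/143B, against 600, 771 and 719 in 468/143B. The groups did not overlap, and here replicate 1 was the lowest in both. POLRMT was 1.74-fold lower in 10A/143B (-0.80 ± 0.12, limma adjusted p = 0.000847, averaged 0.00867). The call rests on a probe set whose suffix (_s_at) marks probes that can match several transcripts. Its 2 other probe sets gave -0.91 (limma adjusted p = 0.0533 over all probe sets) and -0.16 and were not called. Without suffixed probe sets POLRMT was no longer called (-0.16, limma adjusted p = 0.678). The probe set left there was dim, at means of 15.8 in 10A/143B and 19.3 in 468/143B, close to the offset of 16, which understates differences.

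TFB2M and its relative TFB1M were not called on 6 arrays. TFB2M, which opens the promoter for POLRMT, differed by -0.18 ± 0.07 (limma adjusted p = 0.0728) and was called lower with the replicate number as a block (0.0397), but not with the block when replicates 2 and 3 were averaged (0.236). TFB1M, a methyltransferase of the small ribosomal RNA, differed by 0.19 ± 0.09 and was not called.

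The MTERF proteins bind mtDNA or mitochondrial ribosomal RNA, and their 4 genes were all higher in 10A/143B on 6 arrays and not called in the averaged fit without a block. MTERF2 had intensities of 37.5, 116 and 93.7 in 10A/143B, against 21.4, 21.3 and 24.9 in 468/143B. Replicate 1 of 10A/143B thus stood much closer to the 468/143B arrays than replicates 2 and 3 did, and MTERF2 was dim throughout 468/143B. Its difference was 1.26 ± 0.32 (limma adjusted p = 0.0146, averaged 0.109, or 0.0165 with the replicate block), with 0.52 between the replicate 1 arrays and 1.62 between the means of replicates 2 and 3. Its other probe set gave 0.29 and was not called. MTERF1, which binds within mtDNA beyond the ribosomal RNA genes, differed by 0.65 ± 0.20 at low intensities of 35.8 to 41.9 in 10A/143B and 14.4 to 26.5 in 468/143B. MTERF3 and MTERF4, both needed for the mitochondrial ribosome, were higher by 0.29 ± 0.08 and 0.30 ± 0.09. A further probe set of MTERF4 was called the opposite way (-0.90, limma adjusted p = 0.00713 over all probe sets), so MTERF4 has no settled direction.

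At the replication fork, SSBP1 was higher while the polymerase and helicase were not called in both fits. SSBP1, the single-stranded DNA-binding protein, had intensities of 2288, 2048 and 2034 in 10A/143B, against 1618, 1510 and 1541 in 468/143B. The arrays of 10A/143B were all above those of 468/143B and close to each other within each group. SSBP1 was 1.36-fold higher (0.44 ± 0.07, limma adjusted p = 0.000771, averaged 0.0165), though not called when suffixed probe sets were left out (limma adjusted p = 0.284). POLG, the catalytic subunit of the polymerase, had intensities of 491, 385 and 375 in 10A/143B, against 367, 396 and 367 in 468/143B, and these overlap. Its difference was 0.13 ± 0.11 (limma adjusted p = 0.413). POLG2, the accessory subunit, was higher by 0.27 ± 0.08 on 6 arrays only (limma adjusted p = 0.0332, averaged 0.151). TWNK, the helicase, had intensities of 154, 154 and 175 in 10A/143B, against 123, 153 and 147 in 468/143B. The lowest 10A/143B arrays were barely above the highest 468/143B array, and the difference of 0.18 ± 0.12 was not called (limma adjusted p = 0.326) and turned to -0.0044 after quantile normalization. MGME1, the exonuclease that trims replication intermediates, differed by 0.31 ± 0.11 and was not called on 6 arrays (limma adjusted p = 0.0606). It was called with the replicate number as a block (0.0234), but not with the block when replicates 2 and 3 were averaged (0.0582). With the length trend of all genes removed, MGME1 was called higher as well (limma adjusted p = 0.039). TOP1MT, the mitochondrial topoisomerase, had overlapping arrays (-0.22 ± 0.21, not called).

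Of the members that supply DNA precursors, RRM2B showed the clearest change. RRM2B, the p53-inducible small subunit of ribonucleotide reductase, had intensities of 164, 170 and 165 in 10A/143B, against 66.7, 79.9 and 65.3 in 468/143B. The 10A/143B arrays were tightly grouped and far above the others. The gene was 2.11-fold higher (1.08 ± 0.13, limma adjusted p = 0.000243, averaged 0.00861), and it was the only one of the 15 higher by over 1 on this scale. DGUOK, the mitochondrial deoxyguanosine kinase, was lower by 0.26 ± 0.06 on 6 arrays only (limma adjusted p = 0.00647, averaged 0.109).

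Among LRPPRC, SLIRP and FASTKD2, which bind or act on mitochondrial RNA, LRPPRC and FASTKD2 were higher and SLIRP was not called. LRPPRC, a pentatricopeptide repeat protein that stabilises mitochondrial mRNAs, had intensities of 2257, 2837 and 2876 in 10A/143B, against 1531, 1783 and 1795 in 468/143B. Replicate 1 was the lowest in both groups, and every 10A/143B array was above every 468/143B array. LRPPRC was 1.55-fold higher (0.63 ± 0.11, limma adjusted p = 0.00153, averaged 0.0156), and all 5 of its probe sets were positive, from 0.17 to 2.06. SLIRP, its RNA-binding partner, differed by -0.08 ± 0.06, with intensities of 4153 to 4513 in 10A/143B and 4421 to 4545 in 468/143B, and was not called. FASTKD2, which acts on ribosomal RNA of the large mitochondrial subunit, had intensities of 714, 690 and 724 in 10A/143B, against 452, 434 and 434 in 468/143B. Its groups were well apart, and the arrays within each lay close together. FASTKD2 was 1.59-fold higher (0.67 ± 0.06, limma adjusted p = 6.27e-05, averaged 0.00427), and its other probe sets gave 0.94 and 0.77.

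In the whole subgroup of 19 genes of mtDNA replication and transcription, 10 were higher and 2 lower on 6 arrays, or 5 and 1 in the averaged fit. In those fits 35.6% and 22.7% of all genes were called, and 60.8% and 42.1% of genes at or above the median level. After median centring and after quantile normalization 6 were higher and 3 lower, with medians of 0.19 and 0.17. The median difference as deposited was 0.29, with 14 positive and 5 negative values, and it ranged from -0.80 for POLRMT to 1.26 for MTERF2.

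**Figure D2:**
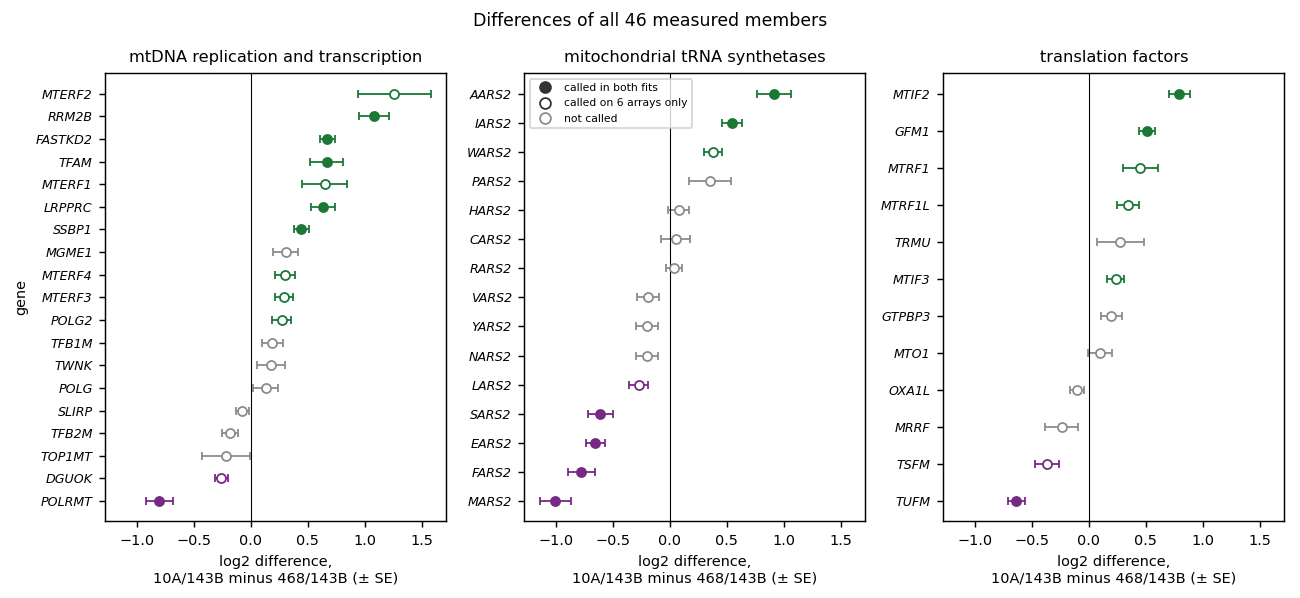
Log2 difference (10A/143B minus 468/143B) of each measured member, with bars for ± 1 SE of the limma fit to 6 arrays, in the 3 subgroups. Filled points were called in both fits, open coloured points on 6 arrays only (green higher, purple lower in 10A/143B), and grey points were not called. The synthetases run from -1.003 for MARS2 to 0.91 for AARS2.

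Mitochondrial aminoacyl-tRNA synthetases, each of which loads 1 amino acid onto its mitochondrial tRNA, went both ways. Of 15 measured, 3 were higher and 5 lower in 10A/143B on 6 arrays (2 and 4 in the averaged fit), with a median of -0.19. These fits called 35.6% and 22.7% of all genes, and 60.8% and 42.1% of genes at or above the median level. The median was -0.09 with the length trend of all genes removed and 0.04 over every probe set tested separately, so its sign is not settled. AARS2, for alanine, had intensities of 224, 244 and 229 in 10A/143B, against 89.3, 128 and 136 in 468/143B. The 468/143B arrays were more spread, replicate 1 being the lowest, and none reached the 10A/143B arrays. AARS2 was 1.88-fold higher (0.91 ± 0.15, limma adjusted p = 0.00151, averaged 0.0141), with 1.15 on its other probe set. IARS2, for isoleucine, had intensities of 1663, 1938 and 1911 in 10A/143B, against 1128, 1342 and 1296 in 468/143B. Both groups had their lowest value in replicate 1 and did not overlap. IARS2 was 1.46-fold higher (0.54 ± 0.09, limma adjusted p = 0.0012, averaged 0.0149).

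WARS2, for tryptophan, was higher by 0.38 ± 0.08 on 6 arrays (limma adjusted p = 0.00459) and missed the threshold in the averaged fit (0.0525), but not in that fit with the replicate block (0.00648). Its 2 other probe sets gave -0.21 and 0.40 and were not called.

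The lower synthetases were led by MARS2, for methionine, which also charges the tRNA that starts mitochondrial proteins. MARS2 had intensities of 105, 111 and 115 in 10A/143B, against 282, 234 and 201 in 468/143B. The 10A/143B arrays lay close together, and the lowest 468/143B array was well above them. MARS2 was lower, with a difference of -1.003 ± 0.14 (log2, a fold of 0.499, limma adjusted p = 0.000467, averaged 0.00621), the largest decrease among the 46 measured members on 6 arrays. FARS2, for phenylalanine, had intensities of 103, 95.7 and 110 in 10A/143B, against 181, 205 and 176 in 468/143B. Its groups were well separated, and it was 1.71-fold lower (-0.78 ± 0.12, limma adjusted p = 0.00094, averaged 0.0227).

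EARS2, for glutamate, had intensities of 290, 286 and 315 in 10A/143B, against 437, 498 and 495 in 468/143B. No array of 10A/143B reached those of 468/143B, and EARS2 was 1.57-fold lower (-0.65 ± 0.08, limma adjusted p = 0.000365, averaged 0.0113). Its other probe sets gave -0.87, -0.84 and -0.08, the last of them not called. SARS2, for serine, had intensities of 131, 124 and 119 in 10A/143B, against 220, 194 and 182 in 468/143B. These did not overlap either, and SARS2 was 1.52-fold lower (-0.61 ± 0.11, limma adjusted p = 0.00282, averaged 0.0449). LARS2, for leucine, was lower by 0.27 ± 0.08 on 6 arrays only (limma adjusted p = 0.0346, averaged 0.267).

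The 7 synthetases not called were those for cysteine, histidine, asparagine, proline, arginine, valine and tyrosine (CARS2, HARS2, NARS2, PARS2, RARS2, VARS2 and YARS2). Their differences ran from -0.20 to 0.35. PARS2 differed most in replicate 1, with an intensity of 129.8 in 10A/143B against 69.1 in 468/143B, while replicates 2 and 3 differed by 0.14 on average. CARS2, HARS2 and RARS2 turned negative after median centring and after quantile normalization.

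Translation itself uses factors that resemble those of bacteria. Of 12 measured, 5 were higher and 2 lower on 6 arrays (2 and 1 in the averaged fit), with a median of 0.22. On 6 arrays 19.9% of all genes were higher and 15.7% lower. At or above the median level, 60.8% of genes were called on 6 arrays and 42.1% in the averaged fit. After median centring 2 were higher and 3 lower, after quantile normalization 2 and 2, and without _x_at and _s_at probe sets the median was -0.02, so these factors had no settled balance. MTIF2, which places the initiator tRNA on the small subunit, had intensities of 1351, 1136 and 1201 in 10A/143B, against 622, 750 and 739 in 468/143B. The groups were far apart, with replicate 1 the highest in 10A/143B and the lowest in 468/143B. MTIF2 was 1.73-fold higher (0.79 ± 0.09, limma adjusted p = 0.000225, averaged 0.00267). MTIF3, the second initiation factor, was higher by 0.23 ± 0.07 on 6 arrays only (limma adjusted p = 0.039, averaged 0.217).

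The elongation factors were split. GFM1, the translocase that moves the ribosome along the mRNA, had intensities of 885, 969 and 1038 in 10A/143B, against 653, 676 and 685 in 468/143B. Every 10A/143B array was above the 468/143B arrays, and GFM1 was 1.42-fold higher (0.51 ± 0.07, limma adjusted p = 0.000631, averaged 0.0166). TUFM, the elongation factor that delivers charged tRNAs, had intensities of 1924, 2165 and 2165 in 10A/143B, against 2998, 3373 and 3373 in 468/143B. Replicates 2 and 3 were equal within each group, and every 10A/143B array was below every 468/143B array. TUFM was 1.55-fold lower (-0.64 ± 0.07, limma adjusted p = 0.000189, averaged 0.00518), with -0.55 on its other probe set. TSFM, which reloads TUFM with GTP, was lower by 0.37 ± 0.10 on 6 arrays only (limma adjusted p = 0.0237, averaged 0.194), by 0.12 between the replicate 1 arrays and by 0.49 between the means of replicates 2 and 3.

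Release factors MTRF1 and MTRF1L, which end translation, were higher by 0.45 ± 0.15 and 0.34 ± 0.09 on 6 arrays only (limma adjusted p = 0.0488 and 0.0214, averaged 0.223 and 0.0897). With the replicate block the averaged fit also called MTRF1L (0.0381). Each had another probe set called higher (0.86 for MTRF1 and 0.43 for MTRF1L), but both were dim. Their mean intensities in the higher and the lower cybrid were 31.1 and 10.1 for MTRF1. For MTRF1L they were 6.97 and 1, the latter being the lowest value on the arrays. Each also had a probe set with a negative difference that was not called (-0.51 for MTRF1 and -0.28 for MTRF1L). In the same order of cybrids, that of MTRF1 was dim (21.1 and 36.8) and that of MTRF1L was brighter (208 and 256). MRRF, the recycling factor (-0.24 ± 0.15), and OXA1L, which inserts new proteins into the inner membrane (-0.10 ± 0.06), were not called.

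MTO1, GTPBP3 and TRMU, which modify the wobble uridine of mitochondrial tRNAs, were not called (0.10 ± 0.10, 0.20 ± 0.09 and 0.28 ± 0.21). The other probe set of GTPBP3 was called lower (-0.82, limma adjusted p = 0.00284 over all probe sets), so GTPBP3 has no settled direction. MTO1 turned to -0.01 after quantile normalization.

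The 46 members are represented by 111 probe sets, and 27 members have several. Of the 15 members called in both fits, 10 have a total of 25 further probe sets. Of these 25, 23 had the sign of the probe set used, 14 of them called, and none was called the opposite way. Among all 65 further probe sets of the members, 2 were called opposite to their gene's sign, those of MTERF4 and GTPBP3.

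**Figure D3:**
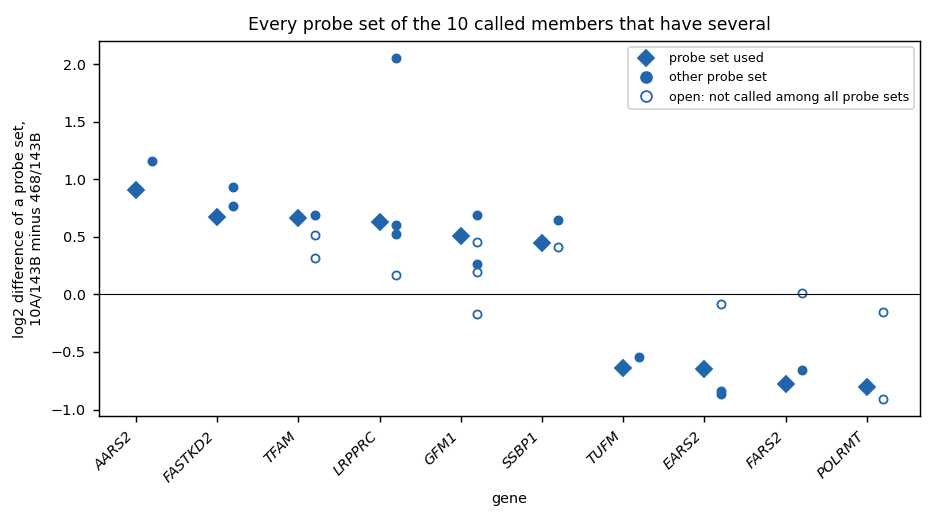
Log2 difference (10A/143B minus 468/143B) of every probe set of the 10 members called in both fits that have several, with a diamond for the probe set used and circles for the others, filled where called among all 41091 probe sets. The widest range is that of LRPPRC, from 0.17 to 2.06, and the exceptions in sign, 1 probe set each of GFM1 (-0.17) and FARS2 (0.01), are open.

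The difference between the cybrids was also read separately in the replicate 1 arrays and in the means of replicates 2 and 3. The sign was the same in both for 43 of the 46 members (93.5%), against 85.6% of genes at or above the median level and 71.97% of all genes. The 27 called members were among the 43, which their calls on the same arrays largely fix. CARS2, POLG and RARS2 were the exceptions. Arrays of the cybrids did not overlap for 33 of 46 members, where 45.8% of all genes did not overlap. That share covers dim genes as well, and the share at or above the median level was not computed. Sizes were not always equal. MTIF2 differed by 1.10 in replicate 1 and 0.64 in replicates 2 and 3, AARS2 by 1.19 and 0.77, and MARS2 by -1.30 and -0.85, whereas TUFM (-0.64 in each) and POLRMT (-0.81 and -0.80) were nearly the same.

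**Figure D4:**
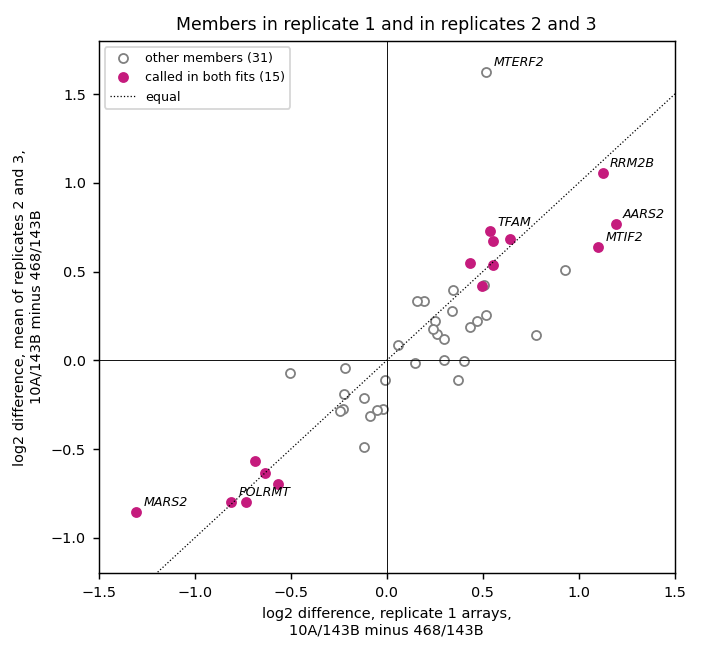
Log2 difference (10A/143B minus 468/143B) of each member between the replicate 1 arrays (horizontal) and between the means of replicates 2 and 3 (vertical), with members called in both fits filled and the line of equal differences dotted. The filled points lie in the quadrants of equal sign, and MTERF2 stands off the line at 0.52 and 1.62.

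Each member was set beside its chromosomal neighbours, the 10 nearest measured genes on either side with other members left out. Neighbour medians ran from -0.43 to 0.24. They had the member's sign for 30 of all 46 members and for 12 of the 15 called in both fits. Whether a member differed more than single genes around it was not tested. The Pearson correlation of member and neighbour differences over the 46 members, a description only since all values come from the same arrays, was 0.40 (Spearman 0.46). TUFM on chromosome 16 had the most negative neighbours of the 15, at -0.36, with 8 of 20 called lower and 2 higher. POLRMT and SARS2 on chromosome 19 had neighbour medians of -0.26 and -0.20, with 6 and 7 of 20 called lower and 0 higher. MARS2 on chromosome 2 went against its neighbours, at -1.003 where they had a median of 0.18 and 8 of 20 were called higher. FARS2 and AARS2 on chromosome 6 had neighbour medians of 0.03 and -0.0043. GTPBP3 on chromosome 19, at 0.20, had the most negative neighbours of all members (-0.43).

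Gene length had little rank correlation with the members' differences. The Spearman correlation was 0.02 over 46 members, against 0.23 over all genes with a length. With the length trend of all genes removed, 17 members were called higher and 10 lower, and all 15 stayed called. Single calls outside the 15 changed. WARS2, MTERF4 and MTRF1 were no longer called (limma adjusted p = 0.0671, 0.11 and 0.185). MGME1 and GTPBP3 were newly called higher (0.039 and 0.0244) and NARS2 newly lower (0.0148). FARS2 is the longest member at 521650 bp and was lower in 10A/143B.

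**Figure D5:**
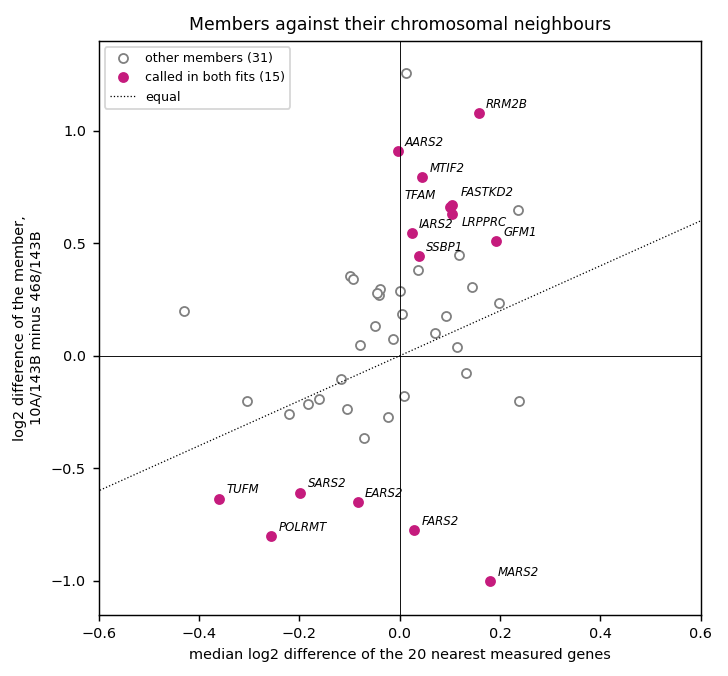
Log2 difference of each member (vertical, 10A/143B minus 468/143B) against the median of the 20 nearest measured genes on its chromosome (horizontal), with members called in both fits filled and named and the line of equal values dotted. TUFM (-0.64) has the most negative neighbours of the filled points, at -0.36, and MARS2 (-1.003) has neighbours of the opposite sign, at 0.18.

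Other genes of the same pathways were taken from lists of known function. In the order of the lists below, 51.9%, 68.2%, 59.1%, 58.8% and 77.8% of their measured genes were called on 6 arrays. Of all genes 35.6% were called, and 60.8% of those at or above the median level, where most of the listed genes lay. The averaged fit called 22.7% of all genes and 42.1% at that level. Whether a list differs from other genes of its level was not tested. Of 27 measured genes of mitochondrial RNA processing, modification and decay, 9 were higher and 5 lower in 10A/143B on 6 arrays (7 and 2 averaged), with a median of 0.09. TRMT10C, the methyltransferase subunit of the mitochondrial RNase P that frees tRNAs from the precursor, had a mean intensity of 916.5 in 10A/143B, against 190 in 468/143B. Its difference of 2.18 ± 0.08 (limma adjusted p = 2.31e-06, averaged 0.000201) exceeded that of every member. FASTKD1 and FASTK, relatives of FASTKD2, were higher by 1.33 ± 0.10 and 0.87 ± 0.07. A further probe set of FASTK gave 0.07.

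Of 22 genes of mitochondrial ribosome assembly and other translation factors, 4 were higher and 11 lower (3 and 5 averaged), with a median of -0.26. GATC, a subunit of the amidotransferase that makes glutaminyl-tRNA from glutamyl-tRNA, was lower (-1.498 ± 0.10), with mean intensities of 305 in 10A/143B and 890 in 468/143B, but its other probe set gave -0.13. EARS2, which makes the glutamyl-tRNA that GATC's enzyme uses, was lower as well. MTRFR, which rescues stalled mitochondrial ribosomes, was higher by 1.18 ± 0.12 and the GTPase GUF1 by 1.10 ± 0.08. Another probe set of MTRFR gave -0.03.

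Of 22 genes of the nucleoid and of mitochondrial dNTP supply, 6 were higher and 7 lower (5 and 2 averaged), with a median of -0.0011. The primase-polymerase PRIMPOL (1.33 ± 0.11) and the nuclease-helicase DNA2 (1.28 ± 0.19) were higher, and the nuclease ENDOG (-0.96 ± 0.12) was lower. Mean intensities were 242 in 10A/143B and 86.8 in 468/143B for PRIMPOL, and 117 in 10A/143B and 243 in 468/143B for ENDOG.

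Cytosolic aminoacyl-tRNA synthetases, measured for 17 of 20, were also split, with 6 higher and 4 lower (5 and 3 averaged) and a median of 0.07. RARS1 (0.89 ± 0.06) and EPRS1 (0.79 ± 0.07) were higher and VARS1 (-0.71 ± 0.10) was lower, while mitochondrial RARS2 (0.04 ± 0.07) and VARS2 (-0.19 ± 0.10) were not called. Whether the cytosolic and mitochondrial sets differ was not tested.

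Among 9 nuclear regulators of respiratory genes, 4 were higher and 3 lower (1 and 1 averaged). The 2 called in both fits are partners in the GABP complex that binds the ETS letters. GABPA, the DNA-binding subunit, had a mean intensity of 269 in 10A/143B, against 85.1 in 468/143B (1.51 ± 0.14). GABPB1, the activating subunit, had 218 in 10A/143B, against 432 in 468/143B (-0.94 ± 0.08), but another of its probe sets was called the opposite way (0.46), so it has no settled direction. Of the members called in both fits whose windows hold the ETS letters, 2 were higher (GFM1 and SSBP1) and 3 lower (EARS2, POLRMT and TUFM). With the NRF1 letters there were 2 on each side (TFAM and IARS2 higher, MARS2 and POLRMT lower). The median difference of the measured members was 0.23 with the NRF1 letters (n = 8) and 0.13 without (n = 31), and 0.30 with the ETS letters (n = 11) and 0.09 without (n = 28). Neither split was tested or set beside the same split of all genes. A link of either split to GABPA or GABPB1 was not tested.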

How the data were processed

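Messenger RNA of 2 cybrids, 3 arrays each, was measured per the labels' protocols on biotin-labelled material. Source names gave each array's group and number. Titles number the arrays of each cybrid in another order, replicate 1 here being the last by title. The authors deposited linear intensity values for each probe set, and how these were summarised and scaled is not given in the sources used here. The lowest value was 1, at which 1461 to 1566 of 54675 probe sets stood. The number of arrays limits the precision, and no detection calls were used.

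Values were used as deposited, as log2(intensity + 16), so folds of dim genes are understated. Of 42898 probe sets in the platform table, 41097 had 1 symbol, 1801 several and 11777 further ones none. Symbols were updated through Entrez identifiers to RefSeq (GRCh38.p14). A gene's brightest probe set by mean log2 level stood for it. The cybrids were tested with limma 3.58.1 (R 4.3.3, eBayes with intensity trend), adjusted over 19775 genes at 0.05. All adjusted p-values are from limma. The code was tested on simulated data.

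Replicate numbers are shared between the groups, and deviations from the group means correlated at 0.30, 0.22 and 0.23 for replicates 1, 2 and 3 across groups, so a fit with the number as a block was added. The members and lists were chosen with earlier results of these data known. The rule for naming took members called in both fits, plus TFAM, POLRMT, TWNK, POLG and TUFM, and up to 3 genes of each related list. The alternatives covered offset, scaling, level filter, choice of probe sets, variance prior, array weights, averaging, block, batch, gene length and each array left out. Promoter sequences are from RefSeq, and 39 of the 46 measured members matched.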

Additional observations from a re-analysis of the deposited data

How the results depend on the processing

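Over 21 alternatives, 13 of the 15 members called in both fits kept their direction and stayed called in every one. The averaged fit by which the 15 were picked is among the 21, and the others reuse the same arrays. Part of this stability was thus fixed by the selection. The exceptions were POLRMT (-0.16, limma adjusted p = 0.678) and SSBP1 (0.41, limma adjusted p = 0.284), which were not called without _x_at and _s_at probe sets. In that setting POLRMT rested on a dim probe set. TWNK was reversed by quantile normalization (-0.0044) and POLG was called under none of the 21. Counts moved more. Median centring and quantile normalization each left 11 members higher, with medians of 0.0833 and 0.0586, where the median of all genes went to -0.12 and -0.07. Averaging replicates 2 and 3 left 9 higher, array weights gave 15 lower, testing every probe set separately gave 31 probe sets higher and 17 lower, and without _x_at and _s_at probe sets the median was 0.0497. Leaving out 1 array gave 10 to 17 members higher, 7 to 14 lower and medians of 0.12 to 0.20. The fewest were higher without 468/143B replicate 2 (10) and without 10A/143B replicate 2 or 3 (11 each), and the most were lower without 10A/143B replicate 1 (14). The causes were not tested. With the replicate number as a block, 19 were higher and 10 lower, or 12 and 6 with replicates 2 and 3 averaged as well. Against the fit to 6 arrays the block changed the call of TFB2M and MGME1 and of no other member. Against the averaged fit it added MTERF2, WARS2 and MTRF1L, all higher, and left TFB2M and MGME1 uncalled.

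No detection calls were used, so signal over background was not assessed for dim members such as MTERF1, MTERF2 and TRMU. Groups of 3 arrays were not searched for single deviating arrays.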
